A study of Mus musculus with 16 samples.

Results

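Matricellular proteins are secreted into the extracellular matrix, where they regulate how cells attach, move and respond to growth factors rather than bearing load. The 10 genes chosen here encode the thrombospondins Thbs1 and Thbs2, tenascin C (Tnc), fibronectin (Fn1), osteopontin (Spp1), Sparc and its relative Sparcl1, fibulin 5 (Fbln5), fibulin 3 (Efemp1) and Tgfbi. They were picked by name, with earlier results of these data known. A transcript cluster is the array's unit of measurement, and some genes have several. Each of the 10 genes was read from the brightest cluster annotated with its symbol alone. This found 9 of the 10 genes among 19938 genes tested, each with 1 cluster, so that splice forms were not separated. Spp1 had no such cluster in the annotation used and was not analysed here. In GRCm38.p6 the genes lie at chr2:118111876-118127133 (Thbs1), chr17:14665500-14694262 (Thbs2), chr4:63959785-64047015 (Tnc), chr1:71585473-71653280 (Fn1), chr11:55394159-55420080 (Sparc), chr5:104079108-104114088 (Sparcl1), chr12:101746565-101819119 (Fbln5), chr11:28853154-28926743 (Efemp1) and chr13:56609586-56639359 (Tgfbi).

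The animals were 8 albino Balb/cJ males, 10 weeks old. Each gave 1 array of neurosensory retina (NSR) and 1 of retinal pigment epithelium (RPE), the cell sheet behind the photoreceptors, taken in isolated form. Of the mice, 4 received 10000 lux of cool white fluorescent light during 18 hours, with tissue collected 4 hours later, and 4 controls stayed on a 12-hour light-dark cycle. This gave 4 groups of 4 arrays: control NSR, light-exposed NSR, control RPE and light-exposed RPE. The study asked how photic injury alters gene expression in each tissue. Bright light and the changed light schedule cannot be told apart in this design.

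Several of these proteins hand signals to cells through integrins, CD44, CD36 or CD47, and thrombospondin 1 is known to activate latent TGF-beta. The fibulins bind elastic fibres, which form a layer of Bruch's membrane, the sheet on which the RPE rests. Tenascin C and fibronectin are laid down at wounds, and fibronectin, fibulin 3 and Tgfbi have each been studied in deposits or scars of the eye.

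Values are log2 expression, so that a difference of 1 is 2-fold. Array medians ran from 6.38 to 6.57, and 25% of genes had means under 5.63, here called dim. The labelled tissues were checked against their markers. Median levels of 10 RPE markers were 12.25 to 12.31 in control RPE and 5.94 to 6.45 in control NSR, and of 9 rod markers 7.59 to 8.32 and 12.10 to 12.17. Other tissue was present in the RPE samples. The log2 of the summed level of 8 lens markers was 10.95 in RPE control 2 and at most 9.69 in the rest of its group. For 8 cornea and ciliary epithelium markers it was 12.59 in RPE light 2 and at most 10.09 in the rest of its group. RPE light 1 had the highest rod median of its group, at 8.40 against 7.26 to 7.42. The rod medians of RPE control 1 and 2 were close to it, at 8.32 and 8.17. In such bulk samples fewer cells of a type and less RNA per cell cannot be told apart.

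**Figure D1:**
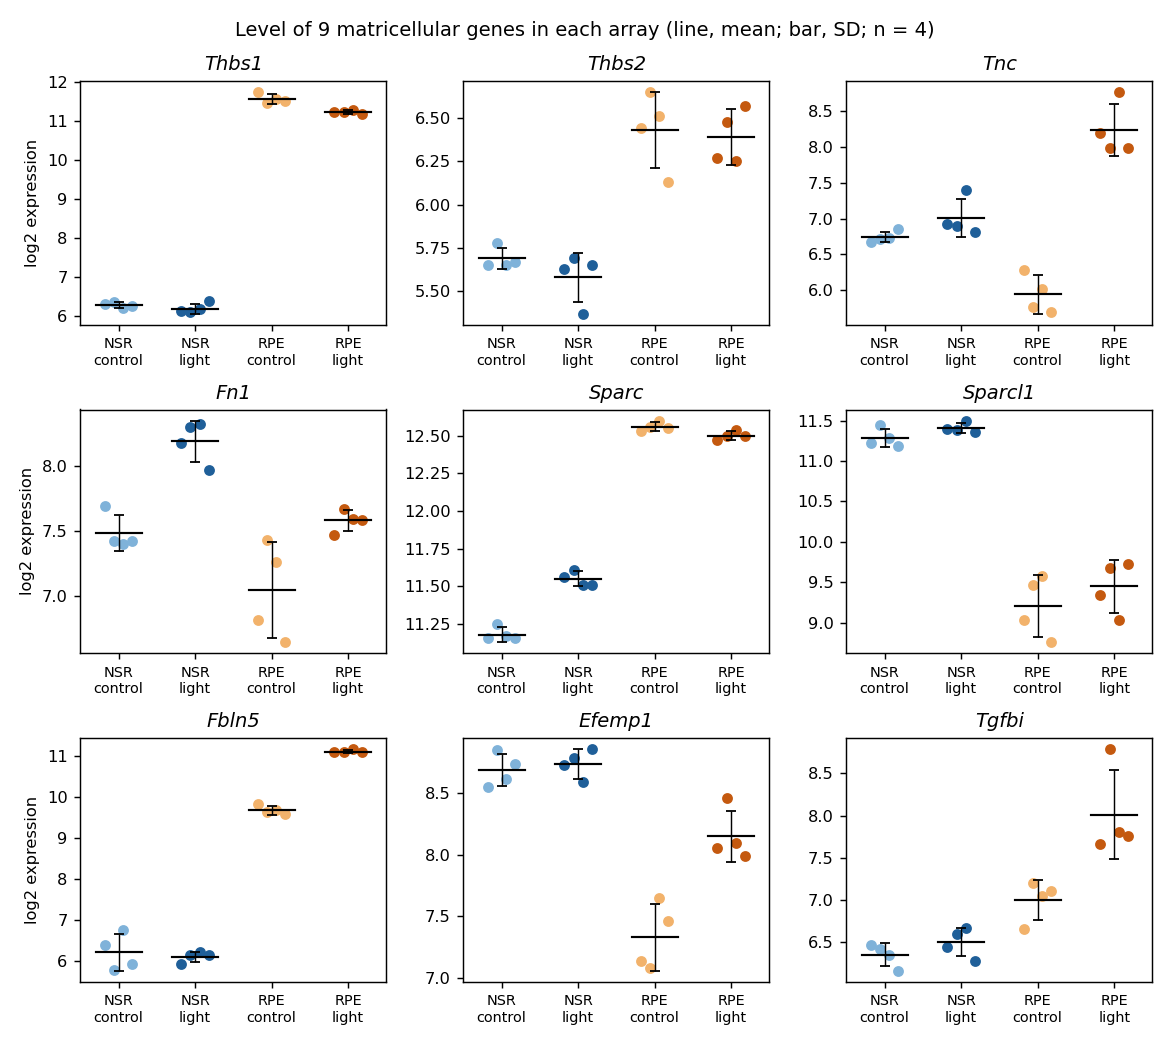
Level of each gene in every array. Each panel plots log2 expression (vertical axis) in the 4 groups (horizontal axis), with 1 point per array, the group mean as a line and the SD as a bar (n = 4). The scale differs between panels. Tnc stood lowest in control RPE (mean 5.94) and highest in light-exposed RPE (8.24), whereas Thbs1 was near 6 in NSR and above 11 in RPE in both treatments.

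More of these genes passed the test for light in the RPE than in the NSR. Because the 9 genes were chosen with earlier results of these data known, the shares of all genes, here and below, are a description. They are no test of the 9 genes as a set. In the RPE, 5 of the 9 genes rose (Tnc, Fbln5, Tgfbi, Efemp1 and Fn1) and 1 fell (Thbs1), where 9.08% of all genes tested rose and 8.53% fell at a limma adjusted p under 0.05. For all 6 the light-exposed arrays lay apart from the control arrays, above them for the 5 that rose, as for 11.3% of all genes, and below them for Thbs1, as for 10.9%. In the NSR, 2 rose (Fn1 and Sparc) and 0 fell, where 8.87% of all genes rose and 6.24% fell. Both had all light-exposed arrays above the controls, as 10.7% of all genes did, and 0 of the 9 had them below, as 9.97% did. The median log2 change was 0.54 over the 9 genes and -0.01 over all genes in the RPE, and 0.12 and -0.02 in the NSR. At least 2-fold changes were seen for 3 genes in the RPE (Tnc, Fbln5 and Tgfbi), where 1.48% of all genes reached that size, and for 0 in the NSR, where 1.35% did. Tgfbi lay at that limit (log2 1.00) and was under it without RPE light 2 (0.74). When the 3 RPE arrays named above (control 2, light 1 and light 2) were all left out, 4 of the 6 calls in the RPE were left, and those of Fn1 and Thbs1 were lost.

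**Figure D2:**
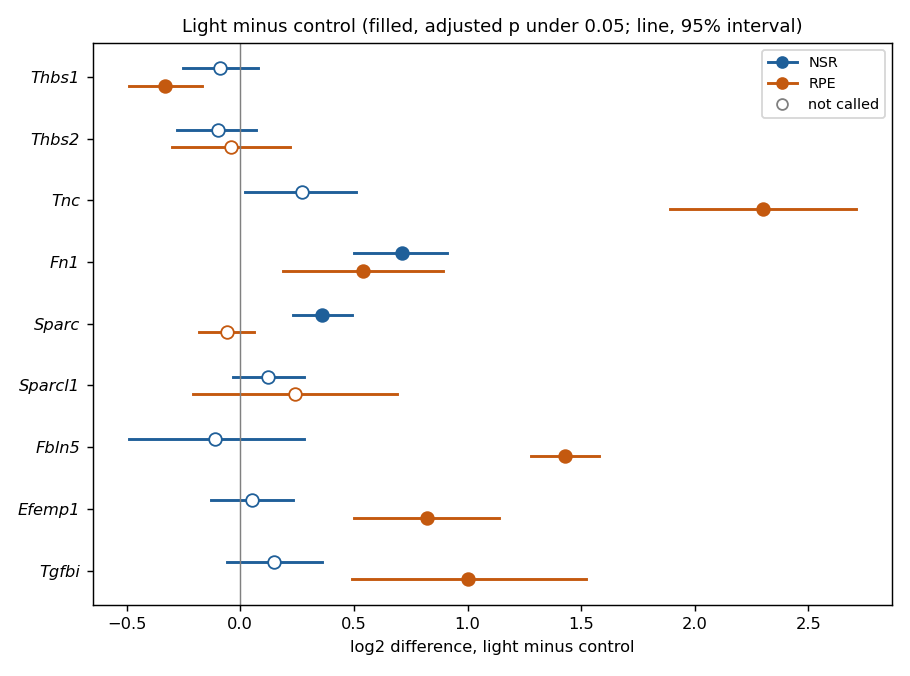
Change with light in each tissue. The horizontal axis gives the log2 difference, light minus control, with its 95% interval from limma for each gene in the NSR (blue) and the RPE (orange). Filled points had an adjusted p under 0.05. Tnc (2.30) and Fbln5 (1.43) lay farthest to the right, both in the RPE.

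Tenascin C, a large glycoprotein that loosens cell attachment and is made during development and repair, showed the largest change of the 9 genes. Tnc stood at 6.28, 5.76, 6.01 and 5.69 in RPE control 1 to 4 and at 8.20, 7.99, 8.77 and 7.99 in RPE light 1 to 4. Every light-exposed RPE array was thus above every control, with RPE light 3 the highest. With 4 arrays in each group, the increase was 4.92-fold (log2 2.30, SE 0.18, limma adjusted p = 4.51e-05), rank 15 of 19938 genes by log2 change. In the NSR, Tnc was 6.68, 6.71, 6.73 and 6.85 in the controls and 6.92, 6.90, 7.40 and 6.81 after light. These groups overlapped, and the difference of 0.27 (95% interval 0.02 to 0.51) did not pass the test (adjusted p = 0.15). The change in the RPE exceeded that in the NSR by 2.03 (SE 0.23, adjusted p = 1.19e-05).

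The fibulins are short glycoproteins with calcium-binding EGF-like repeats. Fibulin 5 ties cells to elastic fibres and is needed for their assembly, and fibulin 3 is best known from an inherited macular dystrophy. Fbln5 was 9.83, 9.64, 9.69 and 9.58 in the RPE of control mice and reached 11.11, 11.09, 11.17 and 11.09 with light. The 2 groups stood far apart relative to their spread, with SDs of 0.11 and 0.03. Fbln5 rose 2.70-fold (log2 1.43, SE 0.07, limma adjusted p = 2.25e-06). In the NSR it ranged from 5.77 to 6.76 in controls and from 5.93 to 6.22 after light, and the difference of -0.11 did not pass the test (95% interval -0.49 to 0.28). It turned to 0.08 without NSR control 3. Efemp1 was 7.14, 7.08, 7.65 and 7.46 in the RPE of control mice and reached 8.06, 8.46, 8.10 and 7.99 with light. All light-exposed RPE arrays were above the controls, a 1.77-fold increase (log2 0.82, SE 0.14, adjusted p = 0.00295). The highest was RPE light 2, the array with the high cornea and ciliary markers, whose part here was not tested. Without the 3 RPE arrays named above the Efemp1 change was 0.63 (limma adjusted p = 0.0429). Efemp1 in the NSR differed by 0.05 (95% interval -0.13 to 0.23, adjusted p = 0.731). The responses of the 2 tissues differed for both genes, by 1.54 for Fbln5 (SE 0.21, adjusted p = 7.82e-05) and by 0.77 for Efemp1 (SE 0.17, adjusted p = 0.00582).

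Tgfbi encodes a secreted protein induced by TGF-beta that binds integrins and collagen and is abundant in the cornea. It was 6.66, 7.20, 7.05 and 7.11 in the RPE of control mice and reached 7.66, 8.79, 7.81 and 7.76 with light. RPE light 2 stood above the others, and it is the array with the high cornea and ciliary markers, of which 8 of 8 were measured. The log2 of their summed level ranged from 10.36 to 10.70 without light and from 9.96 to 12.59 with it, in the RPE. Tgfbi rose 2.00-fold (log2 1.00, SE 0.23, limma adjusted p = 0.0133), and by 0.74 without RPE light 2 (adjusted p = 0.00398). In the NSR it was 6.16 to 6.47 in controls and 6.28 to 6.67 after light (difference 0.15, 95% interval -0.06 to 0.36). The responses differed by 0.85 (SE 0.27, adjusted p = 0.0437). That call was lost under 11 of 24 alternatives, with adjusted p between 0.053 and 0.0902. These were 2 other scalings and leaving out RPE control 1, 3 or 4, NSR control 1, 2 or 3, or NSR light 1, 2 or 4.

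Of the 5 genes that rose in the RPE, 4 had an entry in RefSeq's table of gene starts for GRCm38.p6, and 6 of the 9 genes had one in all. The sequences upstream of these 4 are shown because the genes moved the same way in 1 tissue. Each runs 5′ to 3′ on the gene's strand and ends just before the outermost annotated start. The positions are chr4:64047016-64047265 on the minus strand for Tnc, chr12:101819120-101819369 on the minus strand for Fbln5, chr11:28852955-28853153 on the plus strand for Efemp1 and chr13:56609336-56609585 on the plus strand for Tgfbi. Capitals mark matches to any of 5 motifs searched on both strands: the AP-1 site TGANTCA, the STAT site TTCNNNGAA, an NF-kB site (3 G, any 2 bases, 3 T and 2 C), the GC box GGGCGG and the TATA box TATAAA.
Tnc: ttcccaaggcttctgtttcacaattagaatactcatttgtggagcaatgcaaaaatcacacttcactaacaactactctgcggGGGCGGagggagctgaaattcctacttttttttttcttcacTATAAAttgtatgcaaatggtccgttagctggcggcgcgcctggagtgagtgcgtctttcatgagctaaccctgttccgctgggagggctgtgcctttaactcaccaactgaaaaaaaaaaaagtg
Fbln5: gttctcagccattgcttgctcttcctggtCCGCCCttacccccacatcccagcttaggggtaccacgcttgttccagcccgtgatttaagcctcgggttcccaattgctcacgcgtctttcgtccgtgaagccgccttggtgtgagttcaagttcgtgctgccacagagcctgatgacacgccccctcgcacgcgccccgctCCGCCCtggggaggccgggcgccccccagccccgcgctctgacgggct
Efemp1: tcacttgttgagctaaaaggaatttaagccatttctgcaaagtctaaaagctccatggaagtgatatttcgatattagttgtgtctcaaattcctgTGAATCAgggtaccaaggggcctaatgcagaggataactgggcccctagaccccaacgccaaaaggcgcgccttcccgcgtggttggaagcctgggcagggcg
Tgfbi: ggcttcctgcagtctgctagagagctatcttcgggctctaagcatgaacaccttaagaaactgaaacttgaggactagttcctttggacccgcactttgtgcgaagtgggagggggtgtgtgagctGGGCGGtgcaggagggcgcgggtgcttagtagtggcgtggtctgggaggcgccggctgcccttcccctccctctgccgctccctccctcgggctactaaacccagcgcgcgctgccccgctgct
A GC box was found in the printed sequence of Tnc, of Tgfbi and, at 2 places and on the opposite strand, of Fbln5, and 32.7% of the 32851 windows of 250 bases in the table hold it. Efemp1 held an AP-1 match, TGAATCA, as 6.75% of windows do, and Tnc a TATA box match, as 12.4% do. The windows of these genes held no match to the STAT letters, found in 7.02% of windows, or to the NF-kB letters, found in 1.41%. A further GC box match for Efemp1 lay in the bases inside annotated transcripts, which are not shown. No 2 of the marked matches overlapped.

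Fibronectin, the adhesive glycoprotein that integrins bind through its RGD motif, rose in both tissues. Fn1 in the NSR was 7.69, 7.42, 7.40 and 7.42 in controls and 8.18, 8.30, 8.32 and 7.97 after light. The light-exposed arrays were all higher, a 1.63-fold rise (log2 0.71, SE 0.09, limma adjusted p = 0.000259). In the RPE, Fn1 was 6.81, 7.43, 7.26 and 6.64 in controls and 7.47, 7.67, 7.59 and 7.58 after light. The control arrays were spread widely (SD 0.37 against 0.08), and the light-exposed arrays lay just above them. The change was 1.46-fold (log2 0.54, SE 0.16, adjusted p = 0.0391). This call was lost under 7 of 17 alternatives, with adjusted p between 0.0515 and 0.107. These were leaving out RPE control 1 or 4, any 1 of the light-exposed RPE arrays, or the 3 arrays named above. The log2 change was 0.41 without RPE control 4 and 0.68 without the 3 arrays, and it stayed within these values under all 17. The 7 fibroblast markers, 7 of 7 measured and none dim in the RPE, had log2 sums of 10.79, 11.77, 11.43 and 11.19 in RPE control 1 to 4 and of 11.25 to 11.44 after light. Light raised 1 of them and lowered 0 in the RPE, and their part in the Fn1 result was not tested. The Fn1 responses of the tissues differed by -0.17 (95% interval -0.58 to 0.24, adjusted p = 0.663).

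Sparc binds collagen and weakens cell adhesion, and Sparcl1, also called hevin, is released by astrocytes and promotes synapses. Sparc was 11.16, 11.25, 11.17 and 11.16 in control NSR and 11.56, 11.61, 11.51 and 11.51 in light-exposed NSR. The groups did not overlap, and Sparc rose 1.29-fold (log2 0.36, SE 0.06, limma adjusted p = 0.00136). Cell type markers moved with light in the NSR too. Of 9 rod markers measured on a list of 10, 9 fell (median -0.51), with log2 sums of 15.45 to 15.47 in controls and 14.90 to 15.11 after light. Of 7 Müller glia markers, 7 of 7 measured, 5 fell (median -0.49), with sums of 13.06 to 13.20 and then 12.23 to 12.34. Of 4 astrocyte markers, 4 of 4 measured, 2 rose (median 0.36), with sums of 8.23 to 8.45 and then 8.76 to 8.89. The part of these shifts in the NSR rises of Sparc and Fn1 was not tested. In the RPE it was 12.53 to 12.60 in controls and 12.47 to 12.54 after light, with overlapping groups and a difference of -0.06 (95% interval -0.18 to 0.06, adjusted p = 0.557). The light responses differed by -0.42, RPE minus NSR (SE 0.07, adjusted p = 0.00053). Sparcl1 passed the test in neither tissue. It ranged from 11.18 to 11.44 in control NSR and from 11.36 to 11.50 after light (difference 0.12, 95% interval -0.03 to 0.28). In the RPE it ranged from 8.76 to 9.58 and from 9.03 to 9.73 (difference 0.24, 95% interval -0.21 to 0.69).

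The thrombospondins inhibit the growth of blood vessels. Thbs1 was 11.75, 11.46, 11.57 and 11.51 in the RPE of control mice, whereas with light it was 11.23, 11.24, 11.30 and 11.20. All light-exposed arrays were lower, and Thbs1 was 1.26-fold lower (log2 -0.33, SE 0.07, limma adjusted p = 0.0107). Without the 3 RPE arrays named above the value was -0.36 and the call was lost (adjusted p = 0.0757). Markers of the RPE itself, 10 of 10 measured, were also lower there after light, 7 called lower and 0 higher with a median of -0.44. Their log2 sums ran from 15.59 to 15.67 in controls and from 15.08 to 15.30 with light. Of 9 pericyte and smooth muscle markers, 9 of 9 measured, 4 were called lower and 0 higher, with a median of 0.02. The log2 sums of this list were 11.10 to 11.42 in controls and 10.59 to 10.84 with light. The part of either list in the Thbs1 result was not tested. In the NSR, Thbs1 ranged from 6.20 to 6.36 in controls and from 6.10 to 6.38 after light (difference -0.09, 95% interval -0.25 to 0.08). Its light responses differed by -0.25 (adjusted p = 0.15), which did not pass the test. Thbs2 passed the test in neither tissue: it differed by -0.04 in the RPE (95% interval -0.30 to 0.22) and by -0.10 in the NSR (95% interval -0.28 to 0.07). Its RPE value lay between -0.14 and 0.05 over the alternatives, and its mean in light-exposed NSR, 5.58, was dim.

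Of the 9 genes, 5 differed between the tissues in their response to light, 4 with the larger change in the RPE (Tnc, Fbln5, Tgfbi and Efemp1) and 1 with the larger change in the NSR (Sparc). The background was 13.2% of all genes, 5.16% with a positive and 8.05% with a negative difference, RPE minus NSR. Differences of at least 2-fold were called for 2 of the 9 (Tnc and Fbln5), against 2.17% of all genes. This comparison shares its arrays with the 2 light comparisons, so it adds no independent samples.

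The comparison of the tissues asked in which tissue's samples each gene was higher. All 9 genes differed between control RPE and control NSR, 5 higher and 4 lower in RPE, where 55.0% of all genes differed, 30.8% higher and 24.2% lower. After light all 9 differed again, 6 higher and 3 lower, against 58.0% of all genes, 34.4% higher and 23.6% lower. The arrays of the 2 tissues lay apart for 8 of the 9 in control mice, against 29.5% of all genes above and 22.8% below, and for 9 of the 9 after light, against 30.3% and 21.6%. Differences of at least 2-fold were called for 5 in each treatment, against 16.4% and 15.3%. These shares of all genes are high, so a call by itself says little here, and the sizes are described. Markers of other cells also differed between control RPE and control NSR. Higher in RPE were 7 of 7 fibroblast, 9 of 12 macrophage and microglia, and 6 of 9 pericyte and smooth muscle markers. Lower were 2 of the last list and 0 of the others. Fibroblast log2 sums were 10.79 to 11.77 in control RPE and 9.13 to 9.18 in control NSR. The part of such cells in the tissue differences was not tested. The share of called genes that were higher in control RPE was 56.0%, and 72.2% when arrays were centred on their medians or 66.4% after quantile normalization. In light-exposed mice it was 59.3%, and 73.0% after centring. The median gene's difference was 0.04 in control mice and 0.19 after centring, and 0.08 and 0.20 after light. The directions of the 9 genes were the same under both scalings, and the call of Fn1 in control mice was lost after centring (log2 -0.31, adjusted p = 0.0581).

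Thbs1 showed the widest gap, 39.2-fold higher in control RPE (log2 5.29, SE 0.07, limma adjusted p = 5.08e-19) and 33.1-fold higher after light. It ranked 32 of 19938 genes by log2 difference in control mice. Fbln5 was 11.1-fold higher in control RPE (log2 3.47, SE 0.15, adjusted p = 9.13e-13) and 32.2-fold higher in RPE after light (log2 5.01, SE 0.15, adjusted p = 1.04e-14). Its NSR levels overlapped between treatments, while its RPE levels did not. Sparc was 2.59-fold and then 1.93-fold higher in RPE. Thbs2 was 1.68-fold and 1.75-fold, and Tgfbi 1.57-fold and 2.84-fold higher there.

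Sparcl1, Efemp1 and Fn1 were lower in the RPE. Sparcl1 was 4.21-fold lower in control RPE (log2 -2.07, SE 0.16, adjusted p = 3.01e-09) and 3.89-fold lower after light. Efemp1 was 2.57-fold lower in control RPE (log2 -1.36, SE 0.12, adjusted p = 2.43e-08) and 1.51-fold lower after light (log2 -0.59). Fn1 was 1.36-fold and 1.53-fold lower. Its control arrays overlapped between the tissues.

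Tnc changed sides. It was 1.75-fold lower in RPE than in NSR in control mice (log2 -0.80, SE 0.16, adjusted p = 0.000401) and 2.35-fold higher in RPE after light (log2 1.23, SE 0.16, adjusted p = 4e-06). The 4 groups ranked in the order light-exposed RPE, light-exposed NSR, control NSR and control RPE, with overlap only between the 2 NSR groups. No other gene of the 9 had differences of opposite sign between the tissues in the 2 treatments. For Fn1 the order was light-exposed NSR, light-exposed RPE, control NSR and control RPE, and only the first step was free of overlap. For Tgfbi it was light-exposed RPE, control RPE, light-exposed NSR and control NSR, and again only the first step was free of overlap. Thbs1 and Thbs2 ranked control RPE, light-exposed RPE, control NSR and light-exposed NSR, with overlap between the NSR groups and, for Thbs2, between the RPE groups. Sparc ranked control RPE, light-exposed RPE, light-exposed NSR and control NSR, with overlap between the RPE groups alone. Sparcl1 and Efemp1 ranked light-exposed NSR, control NSR, light-exposed RPE and control RPE, with overlap between the NSR groups and, for Sparcl1, between the RPE groups. Fbln5 ranked light-exposed RPE, control RPE, control NSR and light-exposed NSR, with overlap between the NSR groups alone.

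**Figure D3:**
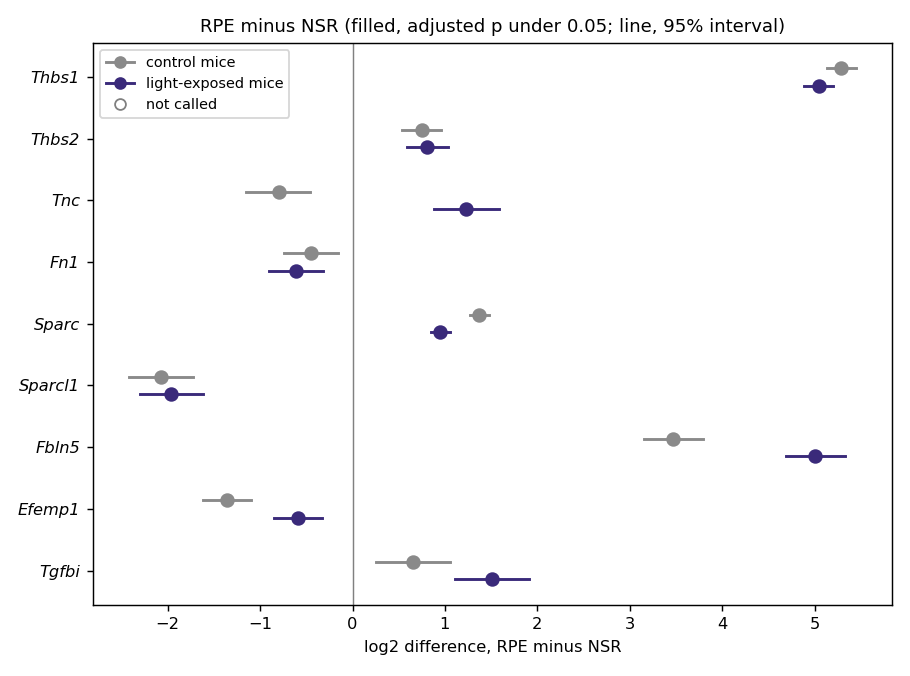
Tissue difference in each treatment. The horizontal axis gives the log2 difference, RPE minus NSR, with its 95% interval from limma, in control mice (grey) and light-exposed mice (purple). All points are filled, with adjusted p under 0.05. Tnc lay at -0.80 in control mice and at 1.23 in light-exposed mice, on opposite sides of 0.

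The genes nearest in pattern were found by the root mean square (RMS) difference over the 16 arrays after centring each gene on its own mean, a description with no test. For Sparc these were Hsd17b10 and Cpne3, both at an RMS difference of 0.09, where the SD of Sparc over the arrays was 0.62. Those for Thbs1 were Wfikkn2 (0.17) and Wls (0.18), with an SD of 2.67 for Thbs1. Tnc was nearest to Net1 (0.30) and Ptpn2 (0.31), with an SD of 0.88. Fbln5 was nearest to Cdh3 (0.45) and Phldb2 (0.47), with an SD of 2.26. Efemp1, with an SD of 0.61, was nearest to Taf1d (0.17) and Lrp11 (0.20). Fn1, with an SD of 0.47, was nearest to Wdr43 and Coro1c (both 0.20), and Tgfbi, with an SD of 0.72, to C4b (0.20) and Fgg (0.24).

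The lists of related genes are read against all genes tested, of which 8.87% rose and 6.24% fell in the NSR (median -0.02) and 9.08% rose and 8.53% fell in the RPE (median -0.01). Other matricellular genes did not move 1 way. Of 30 measured on a list of 31, 4 rose and 3 fell in the NSR, and 2 rose and 5 fell in the RPE, with medians of -0.05 and -0.02. The 2 that rose in the RPE are a share near the 9.08% of all genes. Lgals1, the lectin galectin 1, rose 4.82-fold in the NSR (log2 2.27, limma adjusted p = 6.55e-07) and 1.52-fold in the RPE (log2 0.61, adjusted p = 0.00284). Lgals3, galectin 3, rose 1.75-fold in the NSR. In the RPE, Spock1, a testican of the Sparc family, stood 2.40-fold lower (log2 -1.26, SE 0.12, adjusted p = 7.92e-05). Smoc1, another Sparc relative, stood 1.66-fold lower. Ccn1, a matricellular ligand of integrins, moved in opposite directions. It was 8.39, 8.13, 8.31 and 8.39 in control NSR and 9.08, 9.17, 9.41 and 9.04 after light. In the RPE it was 10.47, 10.87, 10.84 and 10.90 in controls and 9.36, 9.90, 9.79 and 9.81 after light. Light thus raised Ccn1 1.83-fold in the NSR (adjusted p = 4.74e-05) and lowered it 2.07-fold in the RPE (adjusted p = 0.000483). The difference of the responses was -1.92 (SE 0.17, adjusted p = 8.24e-07).

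Of 23 receptors of matricellular proteins, 8 rose and 1 fell in the NSR, and 3 rose and 7 fell in the RPE, with medians of 0.07 and -0.09, beside 8.87% and 6.24% of all genes in the NSR and 9.08% and 8.53% in the RPE. Cd44, the hyaluronan receptor that also binds osteopontin, rose in both, 3.31-fold in the NSR (log2 1.73, SE 0.10, limma adjusted p = 4.52e-07) and 2.11-fold in the RPE (log2 1.08, SE 0.21, adjusted p = 0.00568). The RPE call was lost without the 3 RPE arrays (1.10, adjusted p = 0.0656). Integrin beta 8, which pairs with integrin alpha v to activate TGF-beta, moved in opposite directions. Itgb8 rose 2.31-fold in the NSR (log2 1.21, adjusted p = 2.85e-07) and was 1.53-fold lower in the RPE (log2 -0.62, adjusted p = 0.000287), a difference of -1.82 (SE 0.10, adjusted p = 2.75e-09). Its partner Itgav rose 1.81-fold in the NSR and was 1.32-fold lower in the RPE, a difference of -1.25 (SE 0.09, adjusted p = 7.15e-08). The RPE value of Itgav was singled out after it was seen. The lower RPE levels of Itgb8 and Itgav stood beside the lower RPE markers given with Thbs1 (7 of 10 called, median -0.44), whose part here was not tested. Itgb6, an integrin of epithelia, was 2.41-fold lower in the RPE (adjusted p = 0.00148), from 6.86 to 5.59, a dim level.

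Of 17 measured TGF-beta ligands, receptors and targets, 4 rose and 1 fell in the NSR, and 2 rose and 2 fell in the RPE, with medians of 0.08 and -0.06. The RPE counts are near the 9.08% and 8.53% of all genes. Tgfb2, a TGF-beta ligand of the retina, rose 1.94-fold in the NSR (log2 0.95, SE 0.07, limma adjusted p = 2.73e-06) and 1.45-fold in the RPE (log2 0.54, SE 0.09, adjusted p = 0.0018). Its RPE call was lost without the 3 RPE arrays (0.46, adjusted p = 0.0532). Tgif1, a repressor in the TGF-beta pathway, rose 2.26-fold in the NSR and 2.79-fold in the RPE. Smad3, a signal transducer, rose 1.44-fold in the NSR, and the co-receptor gene Tgfbr3 was 1.33-fold lower in the RPE.

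Of 11 measured genes of elastic fibres and their cross-linking, 1 rose in the NSR, and 2 rose and 2 fell in the RPE. The NSR count is at the 8.87% of all genes, and each RPE count is 2 genes, beside 9.08% and 8.53%. The enzymes that cross-link elastin and collagen were among them: Loxl4 rose 2.27-fold in the NSR, and Lox rose 1.73-fold (log2 0.79, SE 0.15, limma adjusted p = 0.00442) and Loxl3 was 1.38-fold lower in the RPE. Lox was dim in control RPE, at 5.22, as was Loxl4 in control NSR, at 5.62. Loxl4 has several clusters, and the mean of them gave a log2 change of 0.71 (adjusted p = 0.000801) where the brightest gave 1.18. Emilin2, an elastic fibre glycoprotein, rose 1.30-fold in the RPE, a call lost without the 3 RPE arrays (0.28, adjusted p = 0.171). Of 19 matrix proteases and inhibitors, 11 rose and 0 fell in the NSR, with a median of 0.37, and 9 rose and 2 fell in the RPE, with a median of 0.28. Of all genes, 8.87% rose in the NSR and 9.08% in the RPE, with medians of -0.02 and -0.01. The proteases Adamts1 and Mmp14 rose 2.54-fold and 2.11-fold and the inhibitor Timp1 3.00-fold in the NSR. In the RPE the gene of the matrix metalloproteinase Mmp3 was 5.12, 5.64, 5.38 and 4.96 in controls, a dim level, and 10.63, 10.71, 11.28 and 10.42 after light. It stood at rank 2 of all genes (44.8-fold, log2 5.49, SE 0.19, limma adjusted p = 2.89e-07), and the fold rests on a dim control level. Mmp12, the macrophage elastase, rose 24.3-fold and Timp1 9.86-fold there. Timp1 stood near the dim level of 5.63 in controls, at 5.66 in the RPE and 5.69 in the NSR. Its folds in both tissues thus rest on a control level close to dim. The log2 sums of 12 macrophage and microglia markers, 12 of 12 measured, ran from 11.32 to 11.58 in the RPE of controls and from 11.63 to 11.96 with light. Of these markers 2 were called higher and 1 lower, with a median of -0.06, and their part in these changes was not tested.

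**Figure D4:**
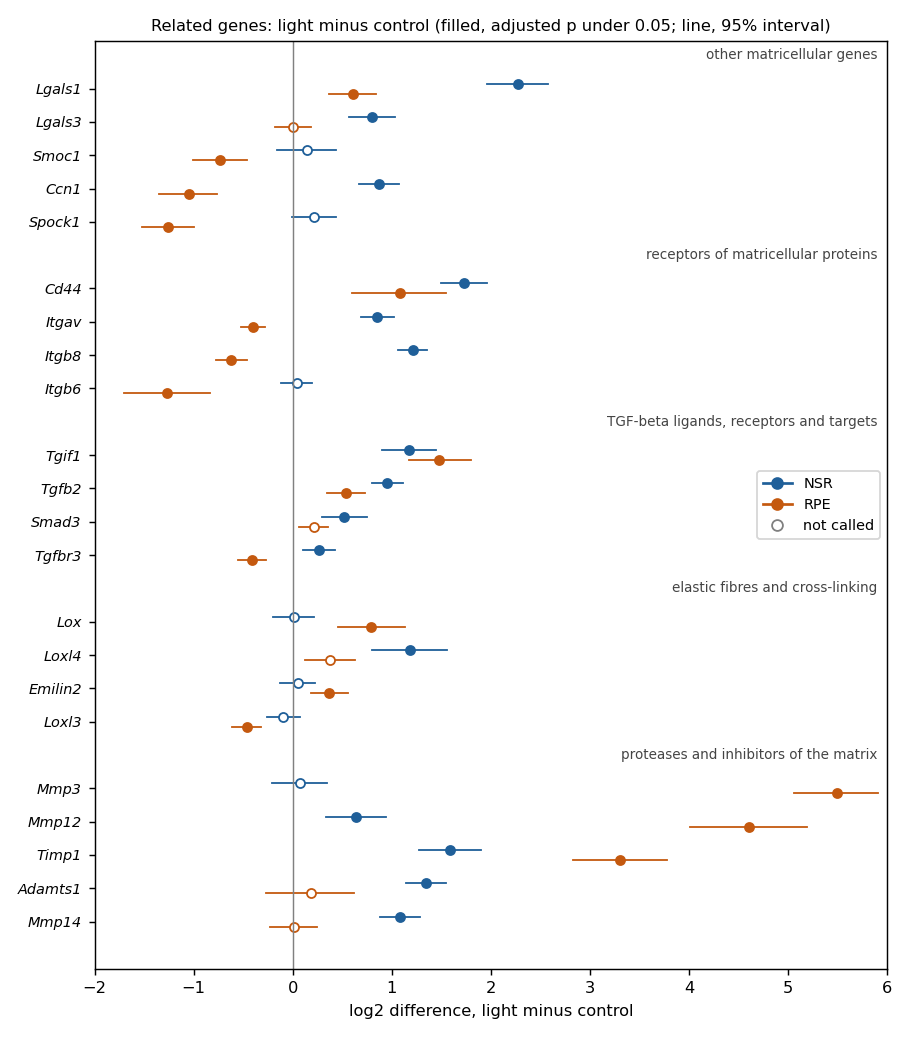
Light response of related genes named by a fixed rule from 5 lists. The horizontal axis gives the log2 difference, light minus control, with its 95% interval, in the NSR (blue) and the RPE (orange), and filled points had an adjusted p under 0.05. Ccn1 (0.87 in NSR, -1.05 in RPE) and Itgb8 (1.21 and -0.62) lay on opposite sides of 0 in the 2 tissues.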

How the data were processed

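RNA of the NSR and RPE was hybridised to 16 Affymetrix Mouse Gene 1.0 ST arrays. Per the labels' protocols, RNA was isolated with the RNeasy Mini kit and amplified with the Ovation Pico WTA system. The authors deposited log2 values for 35556 transcript clusters. The submitters' processing notes name RMA and Partek 6.6. The log2 scale was read from the values (2.20 to 13.84). No background measure accompanies them, so the folds of dim genes are uncertain, and the number of arrays limits the precision. The labels name no batch.

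Of the clusters, 21789 had 1 gene symbol, 1621 several and 12146 none here, and the brightest cluster by mean stood for each of 19938 genes. Gene identifiers matched a GRCm38.p6 table for 21698 clusters, with 0 symbols changed. No 2 arrays were identical in the 120 pairs.

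Groups came from the labels. Light was tested within each tissue on 8 arrays, and the tissues and the difference of responses on all 16 arrays with 4 group means, with limma 3.58.1 in R 4.3.3 (lmFit, eBayes, Benjamini-Hochberg over all genes, calls at 0.05). Tables and figures used Python 3.11.15, pandas 2.3.3 and matplotlib 3.10.9. The fits were tested on simulated data. The NSR and RPE of a mouse share an identifier and are paired by animal, and their deviations from group means correlated at -0.011 to 0.053.

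The 10 genes, the lists, the markers and the alternatives were chosen with earlier results of these data known. Named related genes were, per list and tissue, up to 3 called genes with the largest change. The nearest genes were the 2 with the smallest RMS difference, without predicted or clone names, for genes called in a light comparison. Motifs were searched in the 250 bases before each start, and bases inside any annotated transcript were not printed.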

Additional observations from a re-analysis of the deposited data

Results flagged for a closer look

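An array stood apart from the other 3 of its group in 13 of 164 groups of values examined, where chance gives about 1 in 20. The gap to the nearest array, as a share of the group's range, is given for each. Among the 9 genes, it was 0.866 for Tgfbi in RPE light 2 (8.79 against 7.66 to 7.81), 0.915 for Fn1 in NSR control 1 (7.69 against 7.40 to 7.42) and 0.858 for Thbs2 in NSR control 2 (5.78 against 5.65 to 5.67). Among related genes, RPE control 1 was lowest for Ccn1 (0.866) and Emilin2 (0.832), RPE light 3 lowest for Spock1 (0.846) and highest for Tgif1 (0.837), RPE light 1 lowest for Mmp14 (0.868), and NSR control 2 highest for Itgb6 (0.917). Among summed markers, RPE control 2 was highest for lens (0.984), RPE light 2 for cornea and ciliary epithelium (0.951), RPE control 3 for pericytes and smooth muscle (0.938) and RPE light 4 for the same list after light (0.92).

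Of 12 genes examined, the light responses of 8 differed between the tissues by the test of the difference, RPE minus NSR in log2 units. The 12 were the 9 genes and Ccn1, Itgb8 and Itgav, which were added after their opposite changes in the 2 tissues had been seen. The share of all genes, 13.2%, can therefore be set only beside the 9 genes, of which 5 differed. Those 9 were themselves chosen with earlier results of these data known, so the share is a description and no test. The values were 2.03 for Tnc, 1.54 for Fbln5, 0.85 for Tgfbi, 0.77 for Efemp1, -0.42 for Sparc, -1.25 for Itgav, -1.82 for Itgb8 and -1.92 for Ccn1.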

How the results depend on the processing

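Of 31 called values of the 9 genes over the 5 comparisons, 27 kept their call and direction under all alternatives run, and the 4 that lost it (Fn1 and Thbs1 in the RPE, the Tgfbi difference, Fn1 between control tissues) are given above. Of 32 called values of related genes 29 kept theirs. Values that passed no test changed sign for Fbln5 in the NSR (0.08 without NSR control 3, range -0.26 to 0.08 with arrays left out). They did so for Thbs2 in the RPE (-0.14 to 0.03 with arrays left out, and 0.05 without the 3 RPE arrays named above). The difference of responses changed sign for Thbs2 (-0.04 to 0.13) and Sparcl1 (-0.04 to 0.25). The number of genes called for light in the RPE was 3510, and 2056 without those 3 arrays, with 5 arrays in place of 8. The replicate number as a block, which pairs different mice, gave 2728 called genes for light in the NSR against 3013 and 2984 in the RPE. The mouse as a block gave 2284 for the difference against 2635, 10765 between tissues in control mice against 10961 and 11305 after light against 11573. Neither block changed a call of the 9 genes. Same-numbered light and control arrays correlated at -0.017 to 0.066 in their deviations. With 4 arrays a group, the 95% intervals give the precision, and a value that missed the threshold does not show that the groups were alike.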

Other observations

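The light-exposed mouse numbered 3 was often the highest in both of its tissues, a pattern chosen after the values were seen and not tested. The counts cover the 9 genes and the named related genes, which were picked for the largest changes, not all risen genes of the lists. Of 17 such genes that rose in the NSR, NSR light 3 was the highest of the 4 light-exposed arrays for 11. Fn1, Cd44, Lgals1 and Timp1 were among the 11. Of 14 that rose in the RPE, RPE light 3 was the highest for 9, among them Tnc, Fbln5, Cd44, Mmp3 and Timp1. The same share over all risen genes was not counted, so these counts stand without a background. Tnc was 7.40 in NSR light 3, where the rest of its group reached 6.81 to 6.92, and 8.77 in RPE light 3, where the rest of its group reached 7.99 to 8.20. Cd44 was 8.57 against 8.01 to 8.30 in the NSR and 7.51 against 6.31 to 7.15 in the RPE.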
